A study of Homo sapiens with 6 samples.

Results

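The TSC22D3 locus is described here by the places where the glucocorticoid receptor (GR) was found bound around the gene. TSC22D3 (gene ID 1831) encodes GILZ, the glucocorticoid-induced leucine zipper protein. Peaks were taken when their centre lay between 106850000 and 107070000 on chromosome X (hg19), a window of 220 kb set to hold the gene body and its flanks, and overlapping peaks were merged into sites. This gave 12 sites of the 43713 merged from the 6 dexamethasone lists, and 42 of the 116356 peaks of all 12 lists. The sites were chosen by their peaks in the same 12 lists that are described here, so their counts are a description and carry no test.

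GR binding was mapped by ChIP-seq, with a GR antibody, in a pair of stable lines made from U-2OS, a human osteosarcoma line. They are named the MR/GR cell, in which, by the study's title, the mineralocorticoid receptor (MR) is co-expressed, and the GR cell. Cells were exposed to 100 nM of dexamethasone, a synthetic hormone that activates GR, or to vehicle (DMSO), for 2 hr. The groups were thus the MR/GR cell with dexamethasone, the GR cell with dexamethasone, the MR/GR cell with vehicle and the GR cell with vehicle, each with 3 peak lists (n = 3), and the labels do not say whether these came from separate cultures. Each receptor combination is 1 cell line, and the labels do not describe the clones, the promoters driving the receptors or their levels. The dexamethasone lists held 3713, 10459 and 6660 peaks in the MR/GR cell, against 37650, 30912 and 26191 in the GR cell. The lists carry positions without heights or scores, so a site is either listed or not, and a site that is not listed may be unbound or below the calling threshold.

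GR waits in the cytoplasm without hormone, enters the nucleus when a glucocorticoid binds it, and binds DNA at glucocorticoid response elements. MR is a close relative whose DNA-binding domain recognises the same elements. TSC22D3 is among the best known genes induced through GR in many tissues, and GILZ restrains NF-kB and AP-1, transcription factors that drive inflammatory genes. In kidney epithelium the gene is also induced by aldosterone through MR. The gene is read from several start sites, and a downstream start gives the short transcript that encodes GILZ.

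The RefSeq promoter table used here (build GRCh38.p14) lists 4 TSC22D3 starts on the minus strand, as 2 close pairs. Within the upstream pair the starts are 201 bp apart and within the downstream pair 554 bp, and the first starts of the pairs are 58.9 kb apart in that build. The windows around these first starts are shown because the sequence identifies a start in any build. Each runs 5′ to 3′ from 250 bases before the start, and capitals mark the 50 bases from the start on.
Upstream start, chrX:107775939-107776238, GRCh38.p14, minus strand: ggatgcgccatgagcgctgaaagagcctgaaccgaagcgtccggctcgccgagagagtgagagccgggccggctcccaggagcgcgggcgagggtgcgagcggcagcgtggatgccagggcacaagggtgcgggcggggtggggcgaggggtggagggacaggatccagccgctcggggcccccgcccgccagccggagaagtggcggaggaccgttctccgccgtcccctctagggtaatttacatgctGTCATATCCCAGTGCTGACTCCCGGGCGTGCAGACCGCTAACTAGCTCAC
Downstream start, chrX:107717013-107717312, GRCh38.p14, minus strand: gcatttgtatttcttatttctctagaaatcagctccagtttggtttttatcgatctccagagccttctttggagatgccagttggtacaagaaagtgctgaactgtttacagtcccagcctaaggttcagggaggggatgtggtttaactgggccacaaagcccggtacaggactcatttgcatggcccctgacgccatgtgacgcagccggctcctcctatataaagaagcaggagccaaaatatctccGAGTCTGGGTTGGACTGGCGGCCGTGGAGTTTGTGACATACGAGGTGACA
The upstream window was 69.3% G and C with 30 CpG dinucleotides, and the downstream window 49.7% with 9. The medians over 35116 promoters of 300 bases were 58.7% and 14. The window of the other start was 65.7% with 17 in the upstream pair, and 68.0% with 26 in the downstream pair. The low values of the downstream window thus did not hold for the other start of its pair. None of the 4 windows held the palindromic response element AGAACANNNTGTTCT, or TGTTCT, the shorter element that it contains on each strand, searched on both strands. Of all promoters, 0.00285% held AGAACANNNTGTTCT and 14.8% held TGTTCT. Lacking these exact strings was thus the common state, so nothing particular to TSC22D3 follows. These coordinates are not on the scale of the peaks, which are in hg19, so the distance of each site from the starts is not given.

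Under dexamethasone the GR cell had a row of GR sites across the locus, and the MR/GR cell had a subset of the same places. In the GR cell 10 of the 12 sites were in at least 2 of its 3 dexamethasone lists, here called held, and 8 of these were in all 3. The MR/GR cell held 4 sites, all 4 of them also held by the GR cell, and had a peak in 1 list at a further 2. No site of the locus was found in the MR/GR cell alone. The sites are numbered 1 to 12 from low to high coordinates, which is from the 3′ towards the 5′ side for a gene on the minus strand.

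**Figure D1:**
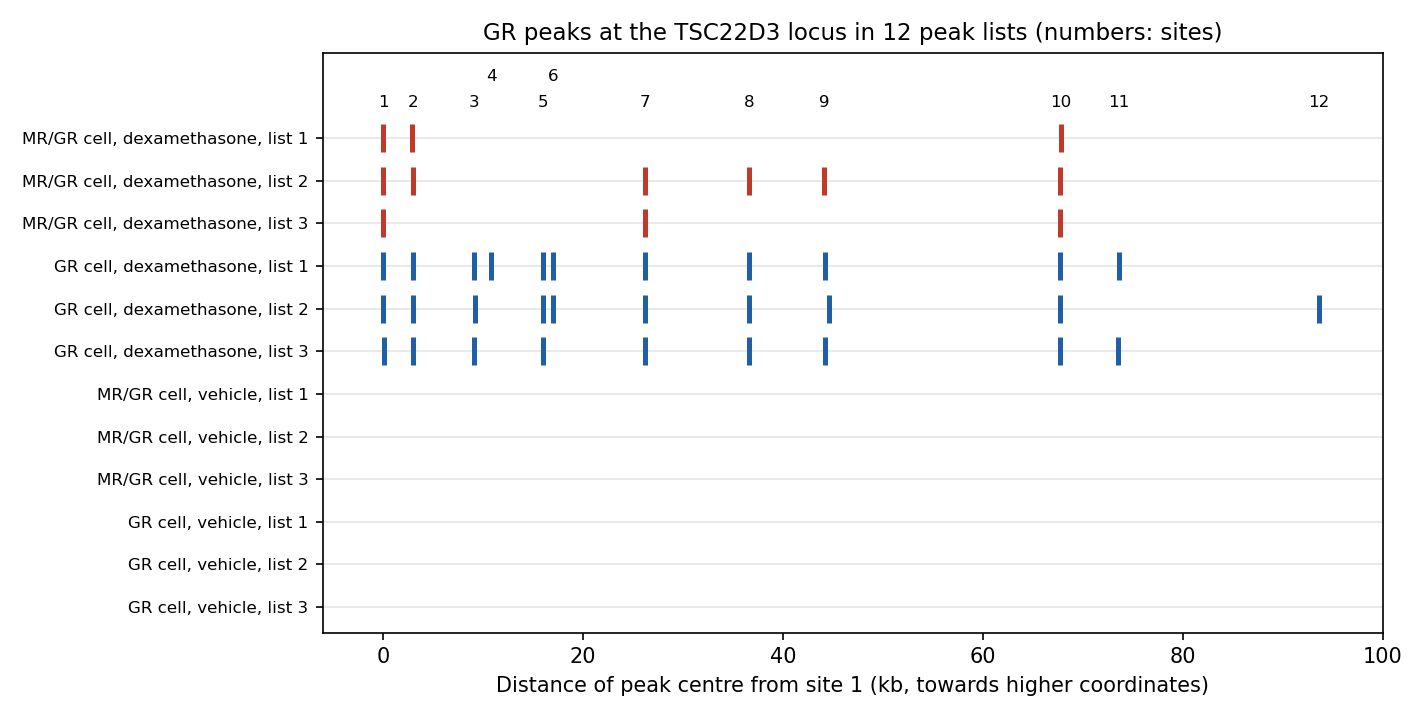
Centres of all GR peaks at the TSC22D3 locus, as distance in kb from site 1 (x axis), with a row for each of the 12 lists, and a tick for each peak (tick width is not to scale). The 6 dexamethasone lists hold 42 peaks at 12 numbered sites, and the 6 vehicle lists hold none.

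Site 1 (106917261 to 106917722) and site 10 (106984973 to 106985396) were in all 6 dexamethasone lists. At site 1 the peak centres were 106917416, 106917402 and 106917464 in MR/GR-cell lists 1, 2 and 3, against 106917445, 106917448 and 106917510 in the GR-cell lists. All 6 centres of site 1 lay within 108 bp, and the centres of the lines overlapped. At site 10 the centres were 106985249, 106985194 and 106985212 in the MR/GR cell, against 106985204, 106985189 and 106985184 in the GR cell, within 65 bp in all. Over the 3017 sites in all 6 lists the median of this range was 69 bp, with quartiles of 47 and 98 bp, so site 10 was close to the median and site 1 above the upper quartile. Being in all 6 lists was a property of 6.90% of all sites, and of 37 sites on chromosome X, 2 of which are these.

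Site 2 (106920251 to 106920674) and site 7 (106943453 to 106943876) were also held by both lines, each missing from 1 MR/GR-cell list. At site 2 the centres were 106920392 and 106920446 in MR/GR-cell lists 1 and 2, against 106920449, 106920480 and 106920462 in the GR cell. At site 7 the centres were 106943697 and 106943658 in MR/GR-cell lists 2 and 3, against 106943672, 106943661 and 106943664 in the GR cell. The missing list thus differed, list 3 at site 2 and list 1 at site 7.

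Site 8 (106953895 to 106954318) and site 9 (106961437 to 106962209) were in all 3 GR-cell lists and in MR/GR-cell list 2 alone, the longest list of that line. At site 8 the single MR/GR-cell centre was 106954080, against 106954101, 106954081 and 106954106 in the GR cell. Site 9 was the broadest of the 12, at 773 bp, and its single MR/GR-cell centre was 106961600, against 106961632, 106962026 and 106961648 in the GR cell. The peak of GR-cell list 2 there was centred 378 bp from that of list 3 and overlapped it by 17 bp, and did not overlap the peaks of GR-cell list 1 or MR/GR-cell list 2. Counted by centres, site 9 was therefore a site of 2 GR-cell lists beside a separate peak in GR-cell list 2.

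**Figure D2:**
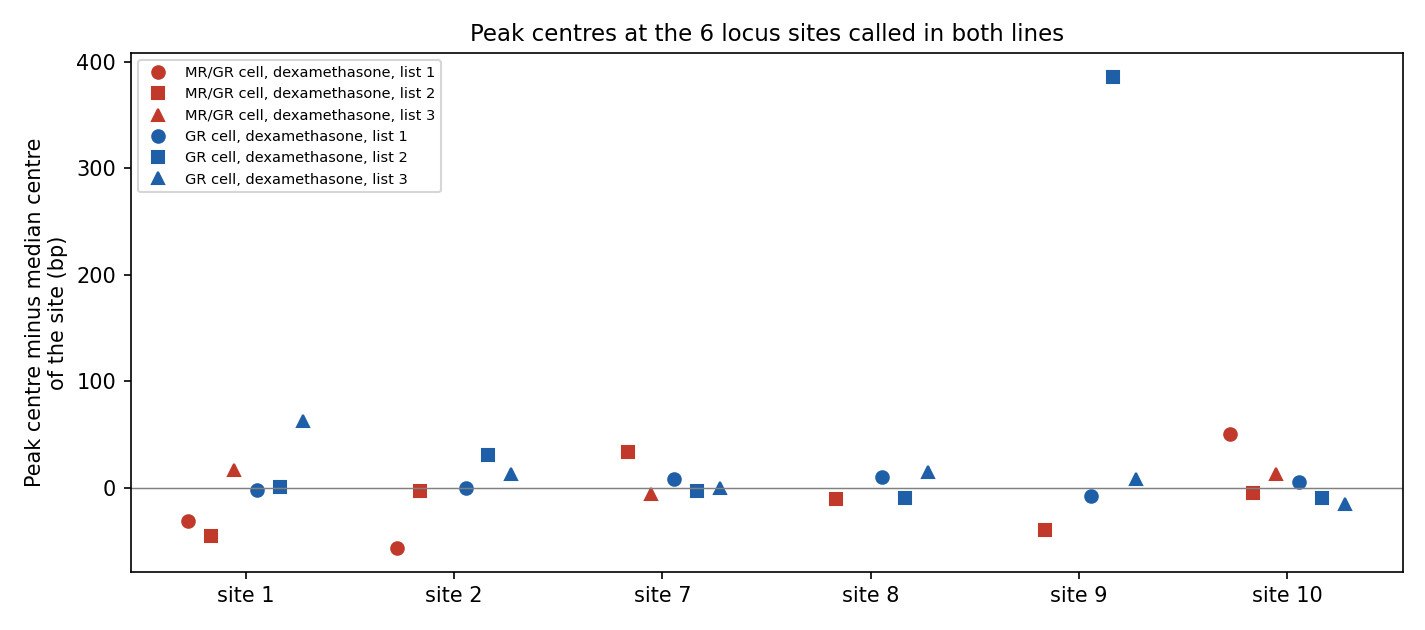
Peak centre minus the median centre of its site, in bp, at the 6 sites with a peak in both lines, by list and line. The points stay within 108 bp of each other at 5 sites, and at site 9 the peak of GR-cell list 2 stands apart, 426 bp from the farthest centre.

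Both sites that every GR-cell list had and no MR/GR-cell list had lay between kept ones. Site 3 (106926315 to 106926793) and site 5 (106933257 to 106933680) were in all 3 GR-cell lists and in none of the MR/GR-cell lists. The GR-cell centres were 106926538, 106926610 and 106926526 at site 3, and 106933503, 106933497 and 106933468 at site 5. Both fall in the stretch between sites 2 and 7, held by both lines, as do site 4 (106928116 to 106928469), called in GR-cell list 1 alone, and site 6 (106934261 to 106934640), in GR-cell lists 1 and 2. In this stretch the MR/GR cell had no peak, while the GR cell had 4, 3 and 2 in its lists 1, 2 and 3. At the high-coordinate end, site 11 (106990798 to 106991221) was in GR-cell lists 1 and 3 and site 12 (107010901 to 107011266) in list 2, and neither was in an MR/GR-cell list.

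A smaller share of sites was lost at the locus than over all sites. Of the 8 sites in 3 of 3 GR-cell lists, 2 were in no MR/GR-cell list, or 25% (Wilson 95% interval 7.15 to 59.1, counting error only), where this was so for 65.6% of all such sites. With at least 2 GR-cell lists required, 4 of 10 were in no MR/GR-cell list, or 40.0%, beside 71.7% of all such sites. The MR/GR cell held 4 of these 10, or 40.0% (16.8 to 68.7), beside 17.9% of all sites held by the GR cell. These shares rest in part on MR/GR-cell list 2. Without it, 4 of the 8 sites were lost (50%), beside 74.3% of all such sites, and 2 of the 10 were kept in both remaining lists (20%), beside 10.5%. With all lists, on the rest of chromosome X the MR/GR cell held 78 of 896, or 8.71% (7.03 to 10.7), and on the other chromosomes 18.1% (17.7 to 18.6). The kept share of the locus was above the chromosome X share in each MR/GR-cell list, with 30.0% against 4.13% in list 1, 60.0% against 13.2% in list 2 and 30.0% against 9.93% in list 3. Over all sites held by the GR cell, the shares in these lists were higher than on chromosome X, at 11.4%, 25.4% and 19.6%. The gap to the locus was thus smaller on that scale, and smallest in list 3. All 4 kept sites were among the 8 found in 3 GR-cell lists, and none of the 4 sites found in 1 or 2 GR-cell lists was held by the MR/GR cell. Over all sites the MR/GR cell held 22.5% of those in 3 GR-cell lists, 3.47% of those in 2 and 1.86% of those in 1. The locus was proposed from these lists, so these shares are set side by side without a test.

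Other densely bound regions kept more of their sites than the chromosomes as a whole, and varied widely among themselves. The chromosomes were divided into windows of 220 kb, and 99 of those outside the locus had at least 10 sites held by the GR cell, 1 of them on chromosome X. Together they had 1096 such sites, of which the MR/GR cell held 29.2% (26.6 to 32.0), and 52.8% of their sites in 3 GR-cell lists were in no MR/GR-cell list. Of 53 windows with exactly 10 sites held by the GR cell, the MR/GR cell held between 0 and 7 of them, with a median of 3, and 20 of the 53 had 4 or more.

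**Figure D3:**
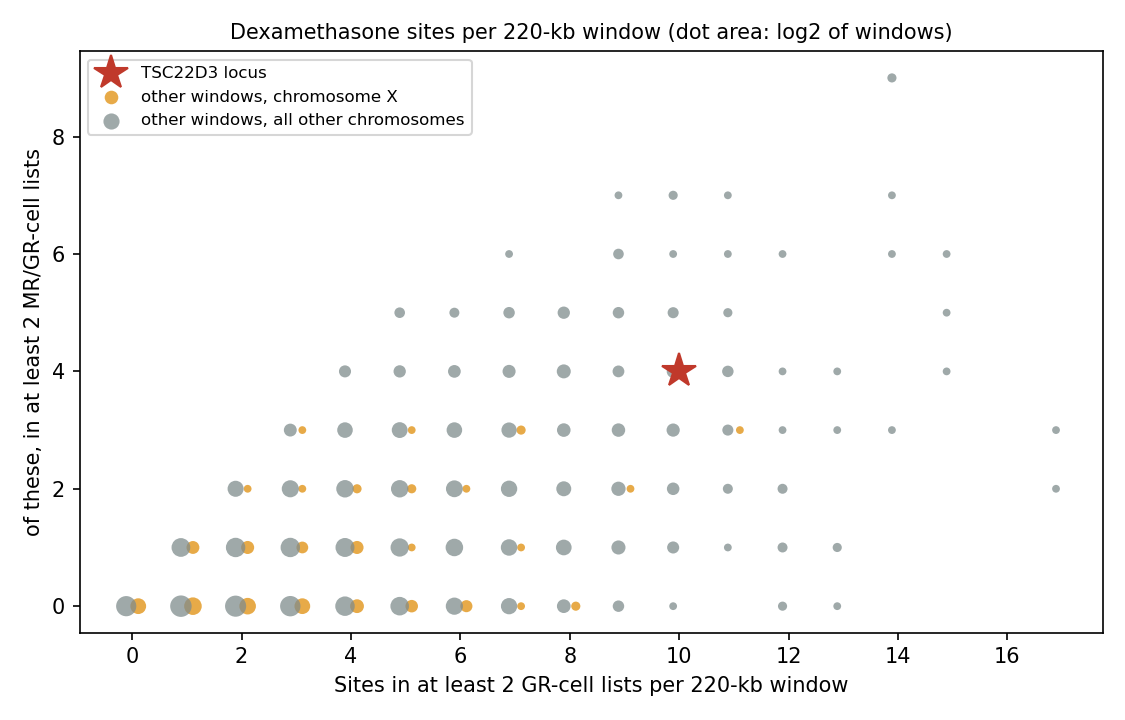
Windows of 220 kb that hold a dexamethasone site, by the number of their sites in at least 2 GR-cell lists (x axis) and the number of these also in at least 2 MR/GR-cell lists (y axis), with dot area following the log2 of the number of windows. The locus, with 10 and 4, lies within the grey dots of the other chromosomes and above the orange dots of chromosome X.

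Counted as peaks, the locus had 3, 6 and 3 in the dexamethasone lists of the MR/GR cell, against 11, 10 and 9 in those of the GR cell. The lines did not overlap, and the means were 4.0 ± 1.73 and 10.0 ± 1.0 (SD, n = 3 lists each), a log2 ratio of -1.32. Per 1000 peaks of the list the order turned round, with 0.808, 0.574 and 0.450 in the MR/GR cell, against 0.292, 0.323 and 0.344 in the GR cell. On that scale the lines did not overlap either, and the log2 ratio of the means was 0.93. The locus thus had fewer peaks in the MR/GR cell, but more of that line's shorter lists. Of all peaks on chromosome X, the locus held 6.98%, 4.23% and 3.00% in the MR/GR cell, against 1.01%, 1.07% and 1.124% in the GR cell.

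**Figure D4:**
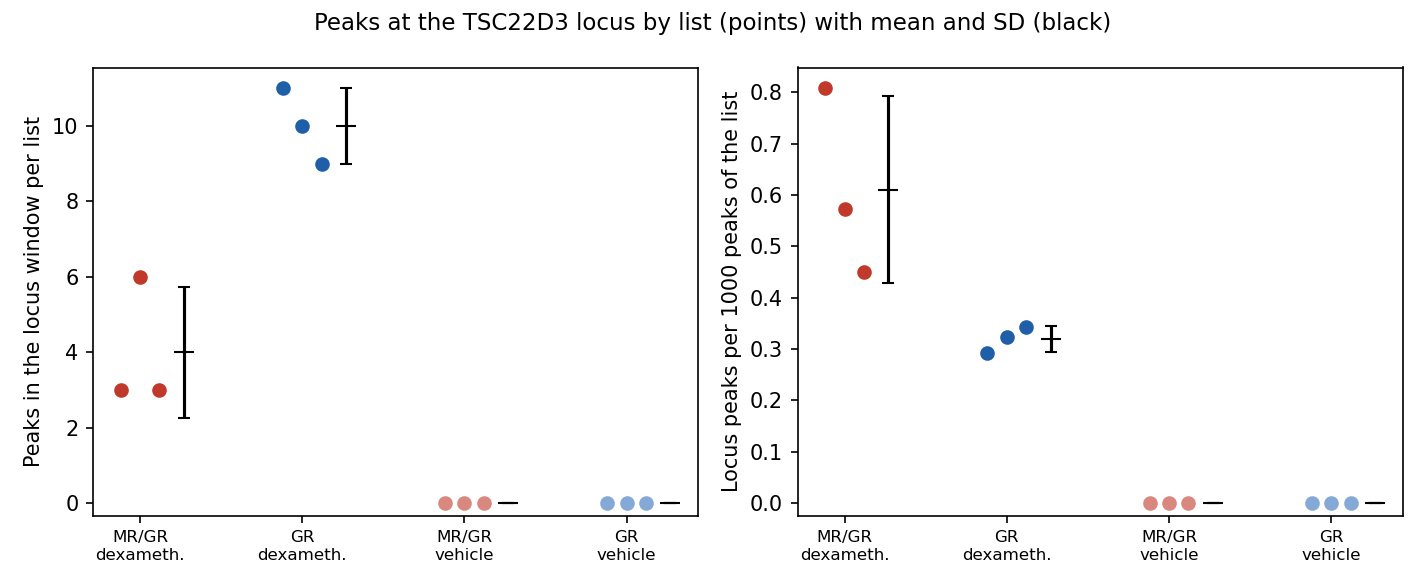
Peaks in the locus window per list (left) and per 1000 peaks of the same list (right), with points for lists and black marks for the mean and SD of 3 lists. On the left the MR/GR cell with dexamethasone (3 to 6 peaks) lies below the GR cell (9 to 11), and on the right above it.

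Binding at the locus was seen only with hormone in these lists. No vehicle list had a peak in the window, neither the 3 of the MR/GR cell nor the 3 of the GR cell, 771 vehicle peaks in all. The dexamethasone lists had 12 peaks there in the MR/GR cell and 30 in the GR cell. Lack of a vehicle peak was the common state, at 99.7% of dexamethasone sites held by the MR/GR cell and 99.2% of those held by the GR cell, so nothing particular to the locus follows. Chromosome X had 6 vehicle peaks in all, the nearest 35057.2 kb from the window.

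The window had a high number of peaks for chromosome X. The locus was proposed from these lists, so its rank is a description and carries no test. Counts here are sums over the 3 dexamethasone lists of a line, so a site in several lists counts more than once. The window's 12 MR/GR-cell peaks came from 3, 6 and 3 in lists 1, 2 and 3. This sum was above that of any of 702 other windows of 220 kb on the chromosome. Their highest count was 10 and their median 0. The window's 30 GR-cell peaks were reached by 1 of those windows, with 34, and the median was 3. Over all 14058 windows, 1.08% had at least 12 MR/GR-cell peaks and 0.562% at least 30 GR-cell peaks. The window was set to hold the gene and its flanks, while the others lie on a fixed grid that can divide a cluster.

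Outside the window, the nearest site in any MR/GR-cell list was far from the kept sites. The next site held by the MR/GR cell lay 1356.7 kb below the lower edge (105493027 to 105493633, in all 6 lists), and no site nearer to that edge was in even 1 MR/GR-cell list. Above the upper edge, the nearest site in any MR/GR-cell list was at 2255.2 kb (109324939 to 109325372, in 1 MR/GR-cell and 3 GR-cell lists), and the nearest held site at 11200.2 kb (118269998 to 118270429, in 2 MR/GR-cell and 3 GR-cell lists). Of any dexamethasone site, the nearest inside the lower edge was site 1, at 67.4 kb, and the nearest outside was 142.0 kb beyond it (106707727 to 106708189, in 0 MR/GR-cell and 3 GR-cell lists). At the upper edge site 12 lay 58.9 kb inside, and a site 16.4 kb outside (107086181 to 107086604) was in 0 MR/GR-cell and 2 GR-cell lists.

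The sites reached beyond the gene. From site 1 to site 12 the centres spanned 93.6 kb, and from site 1 to site 10, both in all 6 lists, 67.8 kb. TSC22D3 is 62.8 kb long in GRCh38.p14, with PRPS1 and NCBP2L as the neighbouring protein-coding genes there. If the gene has the same length in hg19, no more than 9 of the 12 sites can lie within it, and sites 1 and 10 cannot both do so. Gaps between neighbouring sites ran between 580 bp, from site 5 to site 6, and 22763 bp, from site 9 to site 10.

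The regions most like the locus, by the distance between log2(peaks + 1) over the 6 dexamethasone lists, lay on other chromosomes. The closest was chromosome 8, 27060001 to 27280000, at a distance of 0.194 with 3, 6 and 3 peaks in the MR/GR cell, against 11, 9 and 10 in the GR cell. It was followed by chromosome 20, 49940001 to 50160000 (distance 0.327), chromosome 11, 68860001 to 69080000 (0.372), chromosome 12, 53240001 to 53460000 (0.443), and chromosome 16, 11000001 to 11220000 (0.455). A window of chromosome 5 (95480001 to 95700000) had the same distance as the one of chromosome 16. In the first 5 windows the MR/GR cell held 3 of 11, 3 of 9, 3 of 10, 4 of 9 and 4 of 10 of the sites held by the GR cell. These windows were picked for similar counts in the same 6 lists, so their similar kept shares follow in part from that choice. Similar counts say nothing of shared function.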

How the data were processed

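GR ChIP-seq samples of 4 groups were used, each with 3 deposited peak lists. The 2 input samples were not analysed here. The names of the deposited lists give an input as the comparison. By the sample labels, the GR-cell input had 100 nM of dexamethasone and the MR/GR-cell input had none. The inputs of the lines thus differed in treatment, and whether this changed the lists was not tested. The authors deposited a chromosome, start and end per peak and no other measure, with peaks of nearly a single width per list (280 to 304 bp in the MR/GR cell and 354 to 424 bp in the GR cell with dexamethasone). Per the submitters' processing notes, the tools were HOMER 4.8.3, Picard 1.115, SAMtools 1.3.1, Bowtie and Trim Galore 0.4, and the build was hg19, while the calling threshold is not given in the sources used here. Read depth is unknown. Wider peaks overlap more easily, and a more deeply sequenced library can yield a longer list.

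Sites were merged from peaks of the 6 dexamethasone lists overlapping by at least 1 bp, and a site lay in the window when a peak of it was centred there. Site totals were checked with bedtools 2.31.1, and the merging was tested on simulated data. Shares have Wilson 95% intervals. Python 3.11.15, pandas 2.3.3 and SciPy 1.17.1 were used. The locus and its rules were chosen with earlier results of these data known. Sites in all 6 lists, in 3 GR-cell and 0 MR/GR-cell lists, or with another stated pattern were named, and all 12 are accounted for. Promoter sequences are RefSeq's (GRCh38.p14). No hg19 sequence or annotation was used here, so peak sequences and distances to the starts are not given.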

Additional observations from a re-analysis of the deposited data

How the results depend on the processing

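Of 50 alternatives, 46 left the result within the stated limits (counts within 1.5 times, the kept share within its interval). Some of these could not have moved a result. No site was in the MR/GR cell alone, so leaving out an MR/GR-cell list could not remove a site. Shortening the window by 20 kb at each edge reached no site, since the nearest lay 58.9 kb inside. The nearest vehicle peak lay 35057.2 kb away, so moving the edges could not add one. The interval of the kept share, 16.8 to 68.7%, was wide, so 20% and 50% both lay within it. The number of lost sites, 2, was 4 when at least 2 GR-cell lists sufficed, and 4 when a site in 1 MR/GR-cell list also counted as lost. With 1 list left out it ranged from 2 to 4, and the value of 4 came without MR/GR-cell list 2, the longest of its line, since sites 8 and 9 were in no other MR/GR-cell list. Peaks per list had a log2 ratio (MR/GR cell over GR cell) of -1.32 as counts and 0.93 per 1000 peaks of the list, a reversed direction that follows from dividing by lists of unequal length. Joining centres at most 100 bp apart, or requiring an overlap of 50% of the shorter peak, split site 9 and gave 13 sites. As before, 2 were lost and 4 of 10 were kept. Site 9 then had 2 GR-cell lists rather than 3, so the 2 lost sites were out of fewer than 8. The kept share, 40.0%, ranged from 20% to 50% with 1 list left out, lowest without MR/GR-cell list 2. No paired analysis was possible because the labels do not say whether list numbers pair the lines, and no test was run on the locus. Lists without scores do not show how strong a listed or missing site was.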
